A study of Mus musculus with 7 samples.

Results

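The mechanistic target of rapamycin, mTOR, is a protein kinase that couples nutrients and growth factors to protein synthesis and cell growth. The 10 genes described here encode the kinase (Mtor), the subunits Mlst8, Rptor and Rictor, the inhibitory subunit Deptor, the activating GTPase Rheb, and the translation targets Eif4ebp1, Eif4ebp2, Rps6kb1 and Rps6. They were chosen by gene name from the 26019 gene rows of the deposited table, and all 10 were found. Each of the 10 passed the filter on low values, a normalised count of at least 1 in at least 3 libraries, as did 19227 rows in all.

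RNA was measured in libraries of 5 pooled oocytes each, freed from secondary follicles, which are growing follicles with more than a single layer of granulosa cells. There were 3 knockout libraries (KO) and 4 wild-type libraries (WT), all from C57BL/6J mice, with no treatment of the animals given. The labels disagree on the deleted gene: the series title and design name Mfn2-/-, the gene of the mitochondrial fusion protein mitofusin 2, while the genotype label and the protocol name Mfn1-/-, its paralog. They also disagree on age, 8 weeks in the protocol and P1 in the age label, and the design counts 3 mice a group although 4 WT libraries are listed. The labels state neither a promoter that drove the deletion nor the mouse behind each library. The p-values therefore measure only the spread between these libraries, which may be technical. Mfn2 had 7.27, 4.55 and 7.66 normalised counts in KO libraries, against 35.3, 35.1, 15.0 and 29.2 in WT libraries, so its RNA was lower in each KO library (log2 fold change of KO over WT -1.94; limma adjusted p = 0.00571). Mfn1 averaged 330.3 ± 19.9 in KO and 289 ± 36.3 in WT (SD, n = 3 and 4; limma adjusted p = 0.499).

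As background, mTOR works in a pair of complexes. In mTORC1 the kinase is joined by the scaffold raptor (Rptor), which brings in substrates; in mTORC2 it is joined by rictor (Rictor), which directs it to AKT and SGK kinases; mLST8 belongs to both, and DEPTOR binds and restrains both. Rheb, held in check by the TSC complex, activates mTORC1 on the lysosome. Active mTORC1 phosphorylates the 4E-BP proteins, which then release the cap-binding protein eIF4E, and the S6 kinase encoded by Rps6kb1, which phosphorylates ribosomal protein S6. In the mouse ovary, signalling through PI3K and mTORC1 in the oocyte is known to start the growth of dormant follicles. Much of this control is by phosphorylation, which RNA counts do not show.

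A further output of mTORC1 is the translation of mRNAs that start with a 5′ terminal oligopyrimidine (TOP) tract, a C followed by a run of pyrimidines at the first base, which ribosomal protein mRNAs are known for. The first 20 bases at the annotated start are shown for 4 of the 10 genes because they set Rps6, which carries such a tract, beside the kinase, a subunit and the S6 kinase, which do not. Capitals mark the tract.

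Rps6: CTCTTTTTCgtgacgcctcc

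Mtor: tccctggcctagaagacagc

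Mlst8: ttctatcgactagctcctcc

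Rps6kb1: tgaacttgaggagccagtct

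These sequences are from RefSeq (GRCm38.p6), at chr4:86857348-86857367 on the minus strand for Rps6, chr4:148448582-148448601 on the plus strand for Mtor, chr17:24479059-24479078 on the minus strand for Mlst8 and chr11:86544788-86544807 on the minus strand for Rps6kb1. The motif was a C followed by at least 4 letters that are each C or T, on the transcribed strand alone and at the first base. Of the 8 members with an entry in the RefSeq table, 1 held it, Rps6, with a tract of 9 bases. Among all 27025 genes listed there, 673 held it (2.49%), and of 57 other cytosolic ribosomal protein genes 12 did (21.1%). When the motif could begin within 5 bases of the annotated start, the shares were 18.5% and 45.6%, so the exact annotated start matters to this match.

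The KO libraries held 6851042 to 8343915 reads in genes and the WT libraries 6676076 to 7741141. A gene is called here where its Benjamini-Hochberg adjusted p in limma, over all 19227 genes, was under 0.05. The markers of other cell types were not level between the groups. Of 17 granulosa markers 14 were tested, 1 was called higher (Krt8) and 2 lower (Cyp19a1 and Esr2), with a median log2 fold change of 1.54. Their summed level was 1257 to 1666 normalised counts in KO and 1336 to 1576 in WT, a sum dominated by Esr2, but their mean log2 level was 3.49, 4.36 and 4.30 in KO 1 to 3, against 3.39, 2.55, 2.96 and 2.82 in WT 1 to 4. KO 2 and KO 3 were thus highest, and KO 1 lay near WT 1. Of the 14 granulosa markers tested, the log2 fold change was above 0 in 11 and below 0 in 3. Inha had 54.5, 395 and 338 in KO libraries and 66.7, 18.1, 23.4 and 11.9 in WT libraries. Amh was at 0 in 3 WT libraries, and Inhbb was at 0 in all 4. The 3 below 0 were Cyp19a1, Esr2 and Inhba, and Inhba averaged 1.21 ± 1.39 in KO and 4.38 ± 2.81 in WT. Fshr varied widely within both groups, at 21.9 ± 24.4 in KO and 14.2 ± 17.7 in WT. The summed immune markers ran from 187 to 275 in KO and from 541 to 578 in WT, nearly all C1qb. Adgre1, Lyz2 and C1qa were at 0 in every KO library and in 3 of the 4 WT libraries each, and Cd68 averaged 18.4 ± 8.71 in KO and 12.4 ± 1.58 in WT. Csf1r averaged 3.28 ± 2.89 in KO and 8.18 ± 3.80 in WT, and Ptprc and C1qc had no row. Of the 3 immune markers tested, C1qb alone was called, lower in KO (limma adjusted p = 0.000124). Theca and stroma markers summed to 10.9 to 23.6 in KO and 15.0 to 28.8 in WT, with no row for the collagen genes listed. Endothelial and blood markers summed to 164 to 225 in KO and 190 to 223 in WT. Most of this was Pecam1, and Cdh5, Hbb-bs and Hba-a1 had no row. All 16 oocyte markers were tested, and 2 were called, both higher (Ddx4 and Dazl). EdgeR called 3 and DESeq2 5. The log2 fold change was above 0 in 11 of the 16 and below 0 in 5, with a median of 0.25. An unadjusted limma p under 0.05 was found for 7. The 16 summed to 251673 to 417326 in KO and 211609 to 291025 in WT. Gdf9, a marker of the growing oocyte, was abundant in every library and among the more level ones, at 32918 ± 2508 in KO and 30483 ± 2284 in WT. Nlrp5 averaged 26789 ± 8902 in KO and 12964 ± 2889 in WT, with each KO library above each WT library (limma adjusted p = 0.0976). Fits that leave out KO 2 and KO 3 or hold the granulosa marker mean constant are given beside the results on the mTOR genes, and the part of the immune markers in those results was not tested.

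Between KO and WT oocytes, RNA of Eif4ebp1, the translation repressor 4E-BP1, and of Mlst8, the subunit of both complexes, was higher in KO by 1.89-fold and 1.80-fold. The Mlst8 call was not firm: its limma adjusted p was 0.0491, and leaving out any 1 library ended it. The Eif4ebp1 call ended without KO 2. RNA of the kinase itself, of raptor, rictor, DEPTOR, Rheb, 4E-BP2, the S6 kinase and S6 did not pass the test. Of the 10 members 2 were called higher, where 3.09% of all genes were, and 0 were called lower, where 3.63% were; in either direction 6.71% of all genes were called. EdgeR and DESeq2 on the recovered reads also called 2 of the 10, and 4 of the 10 had an unadjusted limma p under 0.05, each with a positive fold change, where 21.8% of all genes had such a p in either direction. The log2 fold change was above 0 in 8 of the 10 and below 0 in 2, with a median of 0.24, beside a median of -0.01 over all genes tested, of which 49.2% were above 0. Such a shift was not particular to the members: the 16 oocyte markers had a median of 0.25, with 11 above 0 and 5 below. In 3 of the 10 (Mtor, Mlst8 and Eif4ebp1) each KO library lay above each WT library, as in 9.37% of all genes tested, and in the other 7 the groups overlapped. In libraries of pooled oocytes, fewer cells of a type and less RNA per cell cannot be told apart.

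**Figure D1:**
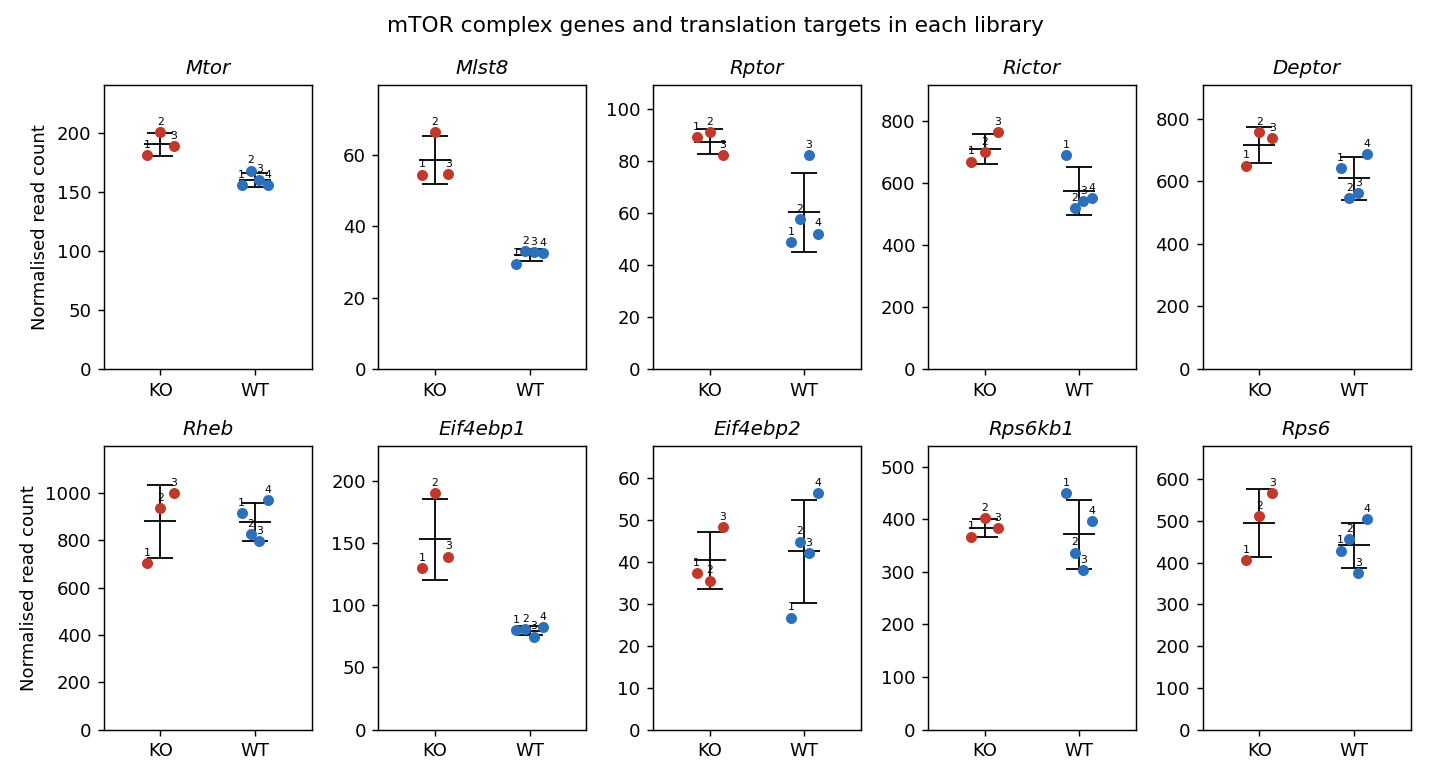
Normalised read counts of the 10 genes in each library, KO left (red) and WT right (blue), each panel from 0; digits are library numbers, horizontal lines the group mean and bars ± SD (n = 3 and 4). KO and WT points are separate for Mtor, Mlst8 and Eif4ebp1 and overlap for the other 7 genes.

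Mtor, the kinase gene (ENSMUSG00000028991.15; GRCm38 chromosome 4, 148448611 to 148557683, plus strand) had 182, 201 and 189 normalised counts in KO 1 to 3, against 156, 168, 161 and 156 in WT 1 to 4. Each KO library was above each WT library, but the gap was small. The means were 191 ± 9.68 in KO and 160.3 ± 5.73 in WT (SD, n = 3 and 4), a log2 fold change of 0.25 (SE 0.17, 95% interval -0.10 to 0.60; limma adjusted p = 0.423), so this difference did not pass the test. Both SDs lie below the counting error expected for such counts, 13.6 in KO and 12.7 in WT, so the libraries spread less than the sampling of reads alone would give.

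Mlst8 (ENSMUSG00000024142.15; chromosome 17, 24473550 to 24479078, minus strand) encodes the small subunit that binds the kinase domain. It had 54.5, 66.4 and 54.7 in KO libraries, against 29.6, 33.0, 32.7 and 32.5 in WT libraries. KO 2 was the highest library, the WT libraries lay close together, and the groups stood well apart. The means were 58.5 ± 6.79 in KO and 31.9 ± 1.61 in WT (SD, n = 3 and 4), with a log2 fold change of 0.85 (SE 0.26, 95% interval 0.32 to 1.38; limma adjusted p = 0.0491). The adjusted p sat just under the threshold. The gene rests on few reads, 60, 73 and 50 in KO libraries and 31, 31, 35 and 30 in WT libraries, and its WT spread was below the counting error of 5.68. Leaving out any of the 7 libraries (KO 1, 2 or 3, or WT 1, 2, 3 or 4) ended the call, with adjusted p of 0.0628 to 0.171 and a log2 fold change of 0.76 to 0.90. Reads cannot be assigned to a strand, and 22.48% of the exon bases of Mlst8 overlap its neighbour Bricd5. Part of the Mlst8 count may therefore be Bricd5 reads, which was not tested. Bricd5 has no row among the 26019, each of which was above 0 in at least 1 library. A gene without a row may thus have had no reads counted on it.

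Rptor (ENSMUSG00000025583.15; chromosome 11, 119602905 to 119899576, plus strand), the scaffold of mTORC1, had 89.0, 90.9 and 82.0 in KO libraries, against 48.6, 57.5, 82.3 and 52.0 in WT libraries. WT 3 reached the KO values while the other 3 WT libraries were far below, so the groups met in a single library. The means were 87.3 ± 4.67 in KO and 60.1 ± 15.2 in WT, a log2 fold change of 0.56 (SE 0.23, 95% interval 0.07 to 1.05; limma adjusted p = 0.160). Without WT 3 the gene was still not called: over the 7 fits without 1 library adjusted p was 0.107 to 0.324.

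Rictor (ENSMUSG00000050310.9; chromosome 15, 6708379 to 6800401, plus strand), the scaffold of mTORC2, had 669, 700.0 and 764 in KO libraries, against 690.2, 519, 541 and 550.2 in WT libraries. WT 1 lay within the KO range and the other WT libraries below it. The means were 711 ± 48.4 in KO and 575 ± 77.9 in WT (SD, n = 3 and 4), a log2 fold change of 0.31 (SE 0.14, 95% interval 0.01 to 0.61; limma adjusted p = 0.204). Within a library, Rptor over Rictor was 0.133, 0.130 and 0.107 in KO and 0.0704, 0.111, 0.152 and 0.0945 in WT, ratios that overlap. Mlst8 over Mtor was 0.300, 0.330 and 0.289 in KO and 0.189, 0.196, 0.203 and 0.208 in WT, with each KO library above each WT library. These ratios are descriptions and were not tested.

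Neither the inhibitor nor the activator of the complexes passed the test. Deptor (ENSMUSG00000022419.16; chromosome 15, 55112317 to 55259271, plus strand) ranged from 650.5 to 757 in KO and from 545 to 688 in WT (log2 fold change 0.23, SE 0.14; limma adjusted p = 0.348). KO 1 lay below WT 4, so the ranges overlap. Rheb (ENSMUSG00000028945.9; chromosome 5, 24802823 to 24842624, minus strand) ranged from 704 to 999.9 in KO and from 795 to 969 in WT, so the KO libraries held both the lowest and the highest value. Its log2 fold change was -0.01 with a 95% interval of -0.31 to 0.29 (limma adjusted p = 0.986), and its sign turned in other fits.

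Of the targets, Eif4ebp1 (ENSMUSG00000031490.6; chromosome 8, 27260329 to 27276674, plus strand) stood furthest from WT. 4E-BP1 binds eIF4E and blocks cap-dependent initiation until mTORC1 phosphorylates it. The gene had 129.9, 190.0 and 139 in KO libraries, against 80.1, 80.9, 74.8 and 82.3 in WT libraries. KO 2 was far above the other KO libraries, the lowest KO library was still above the highest WT library, and the WT libraries were nearly level. The means were 153 ± 32.4 in KO and 79.5 ± 3.30 in WT (SD, n = 3 and 4), where the counting error alone is 8.97 in WT. The log2 fold change was 0.92 (SE 0.20, 95% interval 0.49 to 1.34; limma adjusted p = 0.00936), with adjusted p of 0.00481 in edgeR and 0.000923 in DESeq2. With 1 library left out the call was kept in 6 of 7 fits and ended without KO 2 (log2 fold change 0.75, limma adjusted p = 0.0676).

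Eif4ebp2 (ENSMUSG00000020091.15; chromosome 10, 61428491 to 61452661, minus strand), the gene of the related repressor 4E-BP2, had 37.2, 35.5 and 48.1 in KO libraries, against 26.7, 44.7, 42.1 and 56.3 in WT libraries. The groups overlap across their whole range, with the lowest and the highest value both in WT. The log2 fold change was -0.04 with a wide 95% interval of -0.64 to 0.56 (limma adjusted p = 0.958), which reaches past 0.49, the lower bound for Eif4ebp1. The ratio of Eif4ebp1 to Eif4ebp2 was 3.49, 5.36 and 2.89 in KO and 3.00, 1.81, 1.78 and 1.46 in WT: KO 1 and KO 2 were above every WT library, and KO 3 was below WT 1. Another gene of the family, Eif4ebp3, was at 0 in all 3 KO libraries but not in every WT library. It was not tested, since fewer than 3 libraries held a normalised count of at least 1.

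Rps6kb1 (ENSMUSG00000020516.15; chromosome 11, 86498871 to 86544805, minus strand), the S6 kinase gene, ranged from 367 to 402 in KO and from 303 to 450.0 in WT. All 3 KO libraries lay inside the WT range (log2 fold change 0.06, 95% interval -0.27 to 0.40; limma adjusted p = 0.864). Rps6 (ENSMUSG00000028495.14; chromosome 4, 86854660 to 86857412, minus strand), whose TOP start is shown above, had 406, 511 and 567 in KO libraries, against 429, 456, 376 and 504 in WT libraries. The groups overlap, with KO 2 and KO 3 at the top and KO 1 among the WT libraries. The log2 fold change was 0.16 (SE 0.16, 95% interval -0.17 to 0.49; limma adjusted p = 0.606). Within a library, Rps6 made up 1.08%, 1.12% and 1.17% of the counts on cytosolic ribosomal protein rows in KO, and 0.931%, 1.06%, 0.896% and 1.17% in WT, which also overlap.

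The Rps6 row holds a part of the reads that match its sequence. Other genes share 42.22% of its 75-base stretches, the read length. The processed pseudogene Rps6-ps4 on chromosome 2, 750 bases long, matches a part of the 878-base Rps6 transcript with 0 base differences, so reads inside it cannot be assigned to either. Its row held 1739, 2090 and 2629 normalised counts in KO libraries, against 1850.4, 1743, 1644 and 1855 in WT libraries, several times the Rps6 row in every library. KO 2 and KO 3 were above all WT libraries and KO 1 was among them. Summing Rps6 with the rows of its 4 named pseudogenes, a step added after seeing the data, gave 2148, 2606 and 3202 in KO and 2285, 2207, 2037 and 2367 in WT (log2 fold change 0.24, SE 0.14, 95% interval -0.04 to 0.52; limma adjusted p = 0.322). Neither the single row nor the sum passed the test, and the Rps6 row leaves out any of its reads that were counted on Rps6-ps4, a number these counts do not give. Overlaps with other genes were smaller elsewhere among the members: 3.41% of the exon bases of Deptor (Gm9920), 1.79% of Rps6kb1 (Rnft1) and 0.62% of Rptor (Rptoros).

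**Figure D2:**
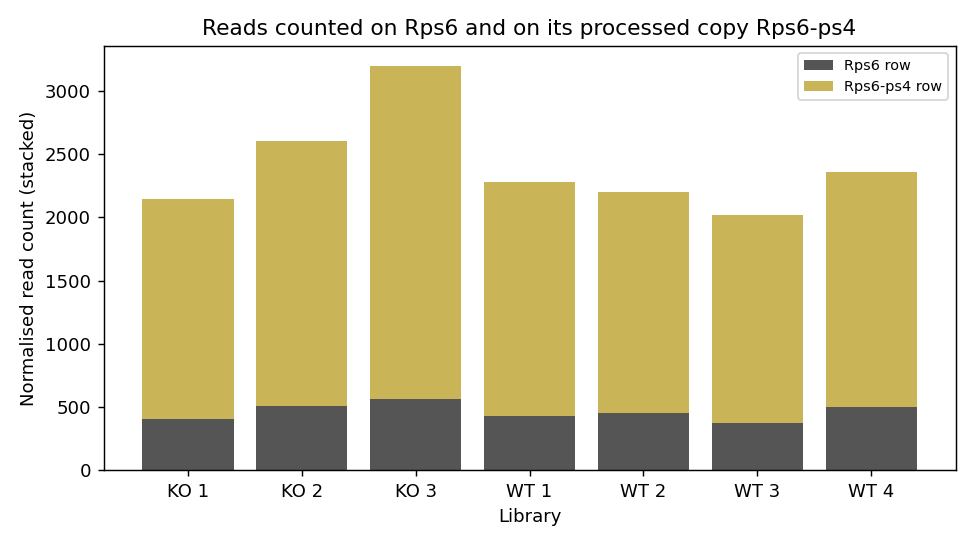
Normalised read counts on the Rps6 row (dark) and the Rps6-ps4 row (light) stacked for each library, KO 1 to 3 left and WT 1 to 4 right, from 0. The pseudogene row is the larger part of every bar, and KO 2 and KO 3 have the tallest bars.

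**Figure D3:**
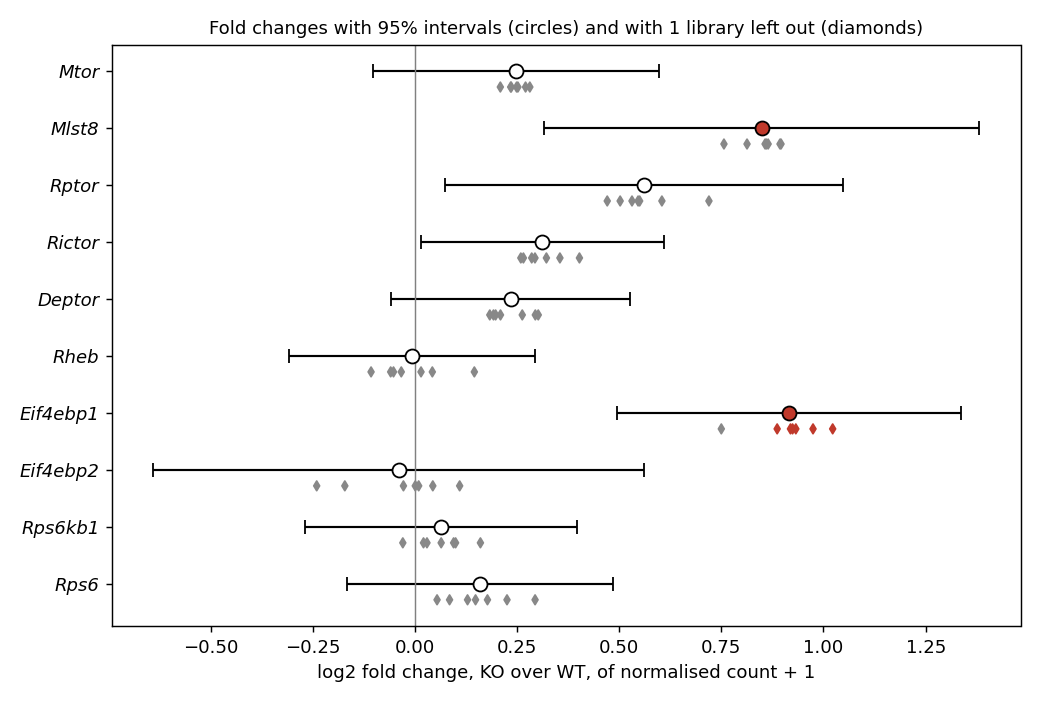
Log2 fold changes of KO over WT for the 10 genes (circles, with 95% intervals, red where called) and the same with 1 library left out (diamonds, red where still called). Eif4ebp1 keeps 6 red diamonds, Mlst8 keeps none, and the sign of Rheb, Eif4ebp2 and Rps6kb1 turns in some fits.

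The results on Eif4ebp1 and Mlst8 were set beside the granulosa markers, whose mean log2 level was highest in KO 2 and KO 3. Not every marker followed this mean: Krt8, Fshr and Nr5a2 were highest in KO 1, and Inhba was highest in WT 3. Cyp19a1 and Esr2 were lower in each KO library than in each WT library. Without both KO 2 and KO 3, the log2 fold change was 0.70 for Eif4ebp1 and 0.75 for Mlst8, and both calls ended. With all libraries the values were 0.92 and 0.85. The smaller fit rests on KO 1 alone, whose marker mean of 3.49 was still above 3.39 in WT 1. A lone KO library is assumed in this fit to vary like the WT libraries. The fit therefore cannot show how much of either difference goes with the markers. With the mean of these markers held constant as a covariate, the values were 0.68 for Eif4ebp1 (adjusted p = 0.841) and 0.82 for Mlst8 (adjusted p = 0.850). That fit called 1 gene in all. Mfn2 was not called in it (log2 fold change -1.71, limma adjusted p = 0.764), nor without both KO 2 and KO 3 (-1.77). The marker mean was higher in each KO library than in each WT library. The part of the granulosa RNA and that of the genotype in these values cannot be told apart with 7 libraries.

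Levels between genes were compared as normalised counts per kb of exon. In KO the order was Rps6 (312), Rheb (114), Deptor (80.7), Eif4ebp1 (69.6), Rps6kb1 (44.3), Rictor (42.0), Mtor (18.9), Mlst8 (13.2), Eif4ebp2 (6.96) and Rptor (6.48). In WT it was Rps6 (278), Rheb (114), Deptor (68.7), Rps6kb1 (42.9), Eif4ebp1 (36.2), Rictor (33.97), Mtor (15.9), Eif4ebp2 (7.34), Mlst8 (7.20) and Rptor (4.46). The 2 genes that were called each moved up 1 place in KO, Eif4ebp1 past Rps6kb1 and Mlst8 past Eif4ebp2. In both groups the neighbours Rps6, Rheb and Deptor did not overlap in their libraries. In WT, neighbours from Rps6kb1 to Rictor overlapped, as did Eif4ebp2, Mlst8 and Rptor among themselves in part: Mlst8 (6.66 to 7.44) lay wholly inside the range of Eif4ebp2 (4.62 to 9.74) and above that of Rptor (3.61 to 6.11). Among 13550 protein-coding genes, Rps6 was at percentile 90.4 in KO and 89.3 in WT, Mtor at 50.8 and 48.6, and Rptor, the lowest member, at 33.7 and 29.0. The Rps6 level is that of its own row, without any of its reads counted on Rps6-ps4. It was divided by 1.586 kb of exon, where the Rps6 transcript has 878 bases. The scaffold of mTORC2 was thus read at a higher level per kb than that of mTORC1 in both groups. Smart-Seq2 copies whole transcripts, but exon lengths of the annotation may differ from the transcripts in oocytes.

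**Figure D4:**
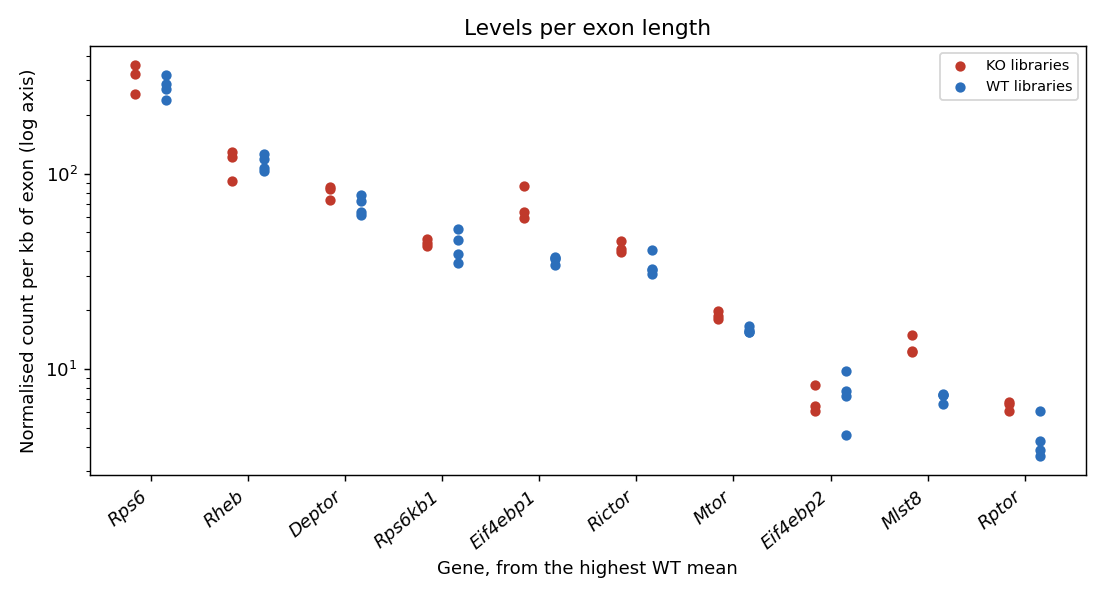
Normalised counts per kb of exon on a log axis for each library, genes in order of their WT mean, KO (red) left of WT (blue) for each gene. Levels run from over 200 for Rps6 to under 10 for Rptor, and KO and WT points are separate for Eif4ebp1, Mtor and Mlst8.

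The wider pathway was read from 8 lists of neighbouring genes. Outside the ribosomal proteins, 94 of 96 listed genes were tested, 3 were called higher and 0 lower (3.19%, beside 6.71% of all genes), with a median log2 fold change of 0.10. The 3 were Ddit4l, Lpin1 and Seh1l.

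Ddit4l, of the REDD family of mTORC1 inhibitors, averaged 46.8 ± 12.4 in KO and 17.9 ± 5.49 in WT, and each KO library lay above each WT library (log2 fold change 1.35, SE 0.33; limma adjusted p = 0.0168). Without KO 2 the adjusted p was 0.0935. Of 9 tested AMPK and stress genes it was the one called, where edgeR and DESeq2 each called 2. Its relative Ddit4 averaged 15.0 ± 0.71 in KO and 14.6 ± 5.36 in WT (log2 fold change 0.12; limma adjusted p = 0.900).

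Lpin1, a phosphatidate phosphatase that mTORC1 phosphorylates, averaged 107 ± 24.9 in KO and 58.1 ± 7.08 in WT (log2 fold change 0.85, SE 0.23; limma adjusted p = 0.0304). It was the one called of 18 tested S6 kinases, elongation factors and other targets. Seh1l, a nucleoporin that is also part of the GATOR2 complex upstream of the Rag GTPases, averaged 834 ± 145 in KO and 581 ± 73.4 in WT (log2 fold change 0.51, SE 0.15; limma adjusted p = 0.0440). It was the one called of 16 tested GATOR, KICSTOR and sensor genes, where edgeR and DESeq2 each called 2. Neither call was firm: without KO 2, KO 3, WT 1, WT 2 or WT 3 both ended, with adjusted p of up to 0.141 for Lpin1 and 0.201 for Seh1l. The calls of Ddit4l, Lpin1 and Seh1l also ended without KO 2 and KO 3 together and with the marker covariate, as did that of Mfn2. Without KO 2 and KO 3 the log2 fold change was 0.99 for Ddit4l (limma adjusted p = 0.4999), 0.46 for Lpin1 (0.651) and 0.27 for Seh1l (0.642). With the covariate it was 0.49 for Ddit4l (adjusted p = 0.925), 0.53 for Lpin1 (0.896) and 0.29 for Seh1l (0.905).

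In the other lists 0 genes were called by limma, edgeR or DESeq2. Among the 7 other complex subunits and assembly factors 1 had an unadjusted p under 0.05, a share below the 21.8% of all genes, and the median log2 fold change was -0.22. It was Akt1s1, the gene of the raptor-binding inhibitor PRAS40, with 133, 93.6 and 58.0 in KO libraries and 106, 192, 170.1 and 117 in WT libraries. The groups overlap through KO 1 (log2 fold change -0.65; limma adjusted p = 0.160), and with 1 library left out the values ran from -0.93 without KO 1, where the gene was called (adjusted p = 0.0354), to -0.34 without KO 3 (adjusted p = 0.479). Without KO 2 and KO 3 together it was -0.0955 (adjusted p = 0.933). Telo2, of the TTT complex that assembles mTOR complexes, averaged 13.3 ± 2.77 in KO and 7.88 ± 3.45 in WT (limma adjusted p = 0.341).

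Of 18 tested genes of the PI3K, AKT and TSC arm, which carries growth factor signals to Rheb, 0 had an unadjusted p under 0.05, and the median log2 fold change was 0.12. Kit, Pik3ca, Pdpk1, the 3 Akt genes, Tsc1 and Tsc2 were among them. Pik3r2, a regulatory subunit of PI3K, averaged 51.43 ± 10.02 in KO and 35.89 ± 9.34 in WT (log2 fold change 0.52; limma adjusted p = 0.291), and Rhebl1, a relative of Rheb, averaged 163.2 ± 27.97 in KO and 133.3 ± 26.03 in WT (0.30; limma adjusted p = 0.419). Both pairs of groups overlap.

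Of the 13 Rag GTPase and Ragulator genes, which hold mTORC1 on the lysosome, 3 had an unadjusted p under 0.05, a share close to that of all genes (21.8%). Rragc averaged 1134 ± 227 in KO and 1486 ± 136 in WT (log2 fold change -0.40; limma adjusted p = 0.0904), and with 1 library left out the values ran from -0.56 without KO 1, where it was called (adjusted p = 0.0166), to -0.31 without KO 3 (adjusted p = 0.227). Without KO 2 and KO 3 together the value was -0.0867 (adjusted p = 0.887). Rragd, a few reads a library, averaged 5.03 ± 4.36 in KO and 0.738 ± 0.911 in WT, where 2 libraries were at 0 (limma adjusted p = 0.122).

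Of the 13 tested genes around eIF4F, the cap-binding complex that 4E-BP1 keeps apart, 5 had an unadjusted p under 0.05, beside 21.8% of all genes, and in 5 each KO library lay above each WT library, beside 9.37% of all genes. Eif4a2, an RNA helicase of the complex, averaged 759 ± 169 in KO and 541 ± 71.2 in WT (log2 fold change 0.47; limma adjusted p = 0.0797; 0.0268 without KO 1 and 0.274 without KO 3, where the log2 fold change was 0.30). Without a filter on low values Eif4a2 was called (adjusted p = 0.04999), and without KO 2 and KO 3 together its log2 fold change was 0.19 (adjusted p = 0.767). Eif4enif1, the eIF4E transporter that holds mRNAs silent in oocytes, averaged 1691 ± 185 in KO and 1293 ± 153 in WT (0.39; limma adjusted p = 0.0856; 0.0420 without KO 3 and 0.237 without KO 2). Eif4e itself, named after its values were seen as the partner of 4E-BP1, averaged 4624 ± 486 in KO and 3702 ± 276 in WT (0.32; limma adjusted p = 0.113). With the filter and all 7 libraries, these 3 genes did not pass the test.

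Of the 78 other cytosolic ribosomal protein genes, the main class of TOP mRNAs, 7 had an unadjusted p under 0.05, a share below the 21.8% of all genes, and the median log2 fold change was -0.02, with 38 above 0 and 40 below. Rps7 averaged 519 ± 70.4 in KO and 698 ± 63.7 in WT (log2 fold change -0.43; limma adjusted p = 0.0763), and Rps3 averaged 776 ± 151 in KO and 562 ± 74.4 in WT (0.46; limma adjusted p = 0.0893; 0.0184 without KO 1 and 0.279 without KO 2). Without KO 2 and KO 3 together the log2 fold change of Rps3 was 0.11 (adjusted p = 0.879). Many of these genes have processed pseudogenes, so single rows are less certain, as for Rps6.

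**Figure D5:**
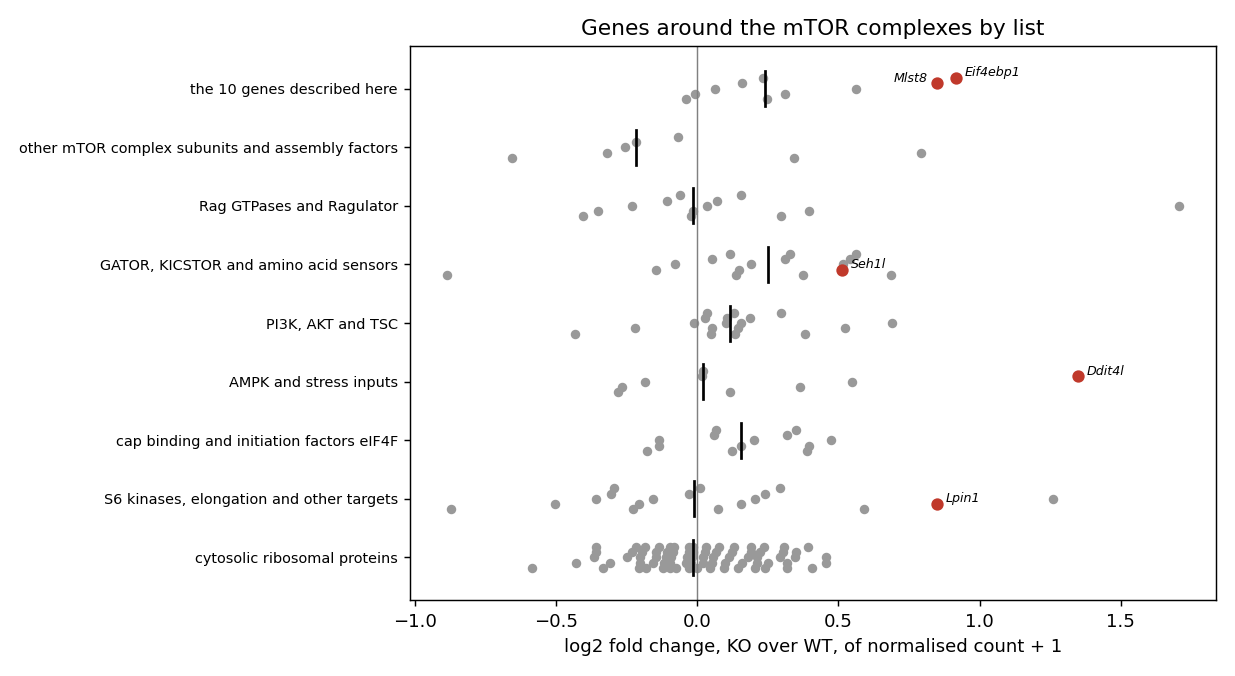
Log2 fold changes of KO over WT for each tested gene of the lists (grey points; red and named where called higher; black bars are list medians). The called genes all have positive fold changes, and the ribosomal proteins centre near 0.

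The genes whose pattern over the 7 libraries was most like that of Eif4ebp1, by the root mean square difference of centred log2 values among 11692 genes averaging at least 20 normalised counts, were Arf2 (0.0863), Gstz1 (0.0962) and Gpx1 (0.103). For scale, the root mean square of Eif4ebp1 around its own mean was 0.48. For Mlst8, at 0.43, they were 6030458C11Rik (0.0644), Arf2 (0.0922) and Commd4 (0.0930). Arf2, an ADP-ribosylation factor gene, was on both lists, with 92.8 ± 12.7 in KO and 46.6 ± 3.11 in WT. A search for the closest of so many genes over 7 libraries finds likenesses in any case, and nothing about shared function was tested.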

How the data were processed

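RNA of 7 libraries (KO n = 3, WT n = 4) was analysed. The authors deposited 1 normalised signal value per gene and library. The submitters' processing notes name STAR, cutadapt, FastQC, DESeq2 and DESeq, with build GRCm38 (mm10), and the sources used here do not name the counter. Values were read counts divided by a library size factor: at least 99.965% per library came out within 0.05 of a whole number. Libraries were unstranded (Nextera XT), per the labels. Because the values were normalised, the test was limma (3.58.1, R 4.3.3; trend and robust) on log2(value + 1), which understates changes of low genes, with p adjusted by Benjamini-Hochberg over 19227 genes. It was tested on simulated data. Means ± SD are of normalised counts, and counting errors cover sampling of reads alone. EdgeR (4.0.16; 1334 genes called) and DESeq2 (1.42.0; 1474) on recovered reads, other pseudocounts, filters and scalings, a marker covariate, a replicate block and leaving libraries out were alternatives. Exon lengths and shared sequence came from GENCODE M21, in which 23996 of 26019 rows were found. Mitochondrially encoded rows numbered 0, and 24 symbols had become dates.

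The members and the gene lists were chosen with earlier results of these data known. Named genes are the 10 members, the called genes of each list or, where none was called, the 2 with the smallest p, the 2 mitofusins, and the 3 nearest patterns of Eif4ebp1 and Mlst8. Outside this rule, Ddit4, Eif4e, Eif4ebp3, several genes of the PI3K, AKT and TSC arm and single cell type markers were also named. A listed gene is not reported here and stays out of the counts of its list.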

Additional observations from a re-analysis of the deposited data

Results flagged for a closer look

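Groups of 4 WT libraries were searched for a library far from the other 3 in 29 genes and marker series; chance alone gives about 1 in 20 such groups. The KO groups of 3 were not searched. Mlst8 in WT 1 was the lowest WT value at 29.6 normalised counts, where the other WT libraries had 32.5 to 33.0; the gap is smaller than the counting error of 5.68.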

How the results depend on the processing

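Of the 10 members, 2 were called; 1 was called with a pseudocount of 0.5, 1 with no filter on low values, 1 with scaling to total reads and 1 with the replicate block (Eif4ebp1 in each case), 0 with KO 2 and KO 3 both left out and 0 with the granulosa marker covariate, and 0 to 1 without 1 library. Over all genes 1291 were called, 98 with KO 2 and KO 3 both left out, 1 with the marker covariate and 594 to 1767 without 1 library. These log2 fold changes turned sign. With the covariate they were -0.019 for Rictor, 0.36 for Eif4ebp2, -0.22 for Rps6kb1, -0.051 for Rps6, -0.0148 for Deptor, 0.36 for Akt1s1, -0.0594 for Rhebl1 and 0.0906 for Rragc. With KO 2 and KO 3 left out they were -0.00078 for Rps6kb1 and -0.11 for Rps6. Rheb was at 0.0071 in edgeR, 0.0043 in DESeq2 and 0.0428 with the replicate block, and Eif4ebp2 at 0.11 with that block. Without 1 library Rheb ran from -0.11 to 0.15, Eif4ebp2 from -0.24 to 0.11 and Rps6kb1 from -0.0294 to 0.16. The cause was not tested. Deviations from the group mean correlated at -0.14, 0.0385 and 0.0258 between libraries of equal replicate number, and at -0.112 to 0.0856 between the others. With 3 libraries a group these correlations constrain each other and cannot show whether libraries were paired. The replicate block, which leaves out WT 4, called 1020 genes and ended the call of Mlst8, which also ended without WT 4 alone. Among the 10 members depth limits Mlst8, Eif4ebp2 and Rptor most, with at most 100 reads in a library.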
